A study of Mus musculus with 2 samples.

Results

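T lymphocytes, NK cells and B lymphocytes were examined in white adipose tissue (WAT) through 40 genes that such cells use, listed by name: 29 genes of T and NK cells and 11 of B and plasma cells. On the arrays, 39 of the 40 had a probe set annotated to that gene alone. The gene left without one was *Lck*, a kinase of the T cell receptor, which was not analysed here. A probe set is the group of short probes that reads 1 transcript, and where a gene had several, its value is that of the probe set with the highest mean log2 signal of both arrays. The 39 genes are part of 18193 genes read in this way.

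Perigonadal WAT came from female mice of the C57BL/6 background, aged 30 weeks, fed a high-fat diet (HFD) and fasted overnight. PeriA Tg mice were heterozygous for a transgene in which the aP2 promoter/enhancer drives human perilipin A, a protein of the lipid droplet surface, and WT mice were littermates without the transgene. The aP2 gene (*Fabp4*) is used by adipocytes and, as background, also by macrophages. Activity of the transgene in lymphocytes was not examined here. RNA of 3 mice per genotype was pooled and each pool was hybridised to 1 Affymetrix Mouse Genome 430 2.0 array. There are thus no replicates, no error over mice and no test, and each difference below is between 2 arrays. The probe sets of perilipin were not named in the annotation, so that the transgene was not checked here.

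T lymphocytes carry a receptor whose signal passes through the CD3 chains to a chain of kinases and adaptors. CD8 T cells and NK cells kill target cells with granules of perforin and granzymes, while B cells bind antigen with surface immunoglobulin and mature into plasma cells that secrete it. All of these cells reside among the adipocytes of WAT, and in obesity T cells and B cells are known to accumulate there together with macrophages. In RNA from whole tissue, fewer cells of a type and less RNA per cell cannot be told apart.

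The deposited values are MAS5 signals, brightness on a linear scale in arbitrary units, and 98.2 was the median over the pooled signals of the 2 arrays. The signal log ratio is log2 (Signal of Tg/Signal of WT), and values under -0.3 or over 0.3 were counted, the threshold in the methods of the study. Probe sets of 1 gene read from the same pools differed from each other with a pooled SD of 0.41 in this ratio (5260 genes), and of 0.51 where the mean signal was under 470.5, the 75th percentile of all signals (2093 genes). The threshold is therefore smaller than the spread between readings of 1 gene. The mature adipocyte markers *Adipoq* (41052 in WT, 43803 in Tg) and *Fabp4* (51832 in WT, 53339 in Tg) were bright on both arrays. One technical difference goes with genotype. For bacterial poly-A transcripts labelled with the sample, the 5' probe set had a lower ratio than the 3' probe set in all 8 pairs. The median difference was -0.55, against -0.0050 for 8 pairs of controls added after labelling. The poly-A pairs read the transcripts dap, lys, phe and thr repeatedly, so that they are not 8 independent readings. The same holds for the other controls. A pair named Trpn, counted in neither set, had 0.44. The part of this technical difference in the values below was not tested.

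Of the 39 lymphocyte genes, 20 had signals at or above the median on both arrays, 5 on the WT array alone, none on the Tg array alone, and 14 were below it on both. The genes above it on both arrays were *Cd3d*, *Cd3g*, *Cd2*, *Thy1*, *Cd28*, *Zap70*, *Lat*, *Gzma*, *Nkg7*, *Klrd1*, *Klrk1*, *Cd22*, *Cd79a*, *Cd79b*, *Ms4a1*, *Blk*, *Pou2af1*, *Jchain*, *Mzb1* and *Ighm*. Those above it on the WT array alone were *Cd247*, *Cd5*, *Cd8a*, *Gzmk* and *Prf1*. A gene of the latter kind was kept through its WT signal and had to be lower in Tg.

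**Figure D1:**
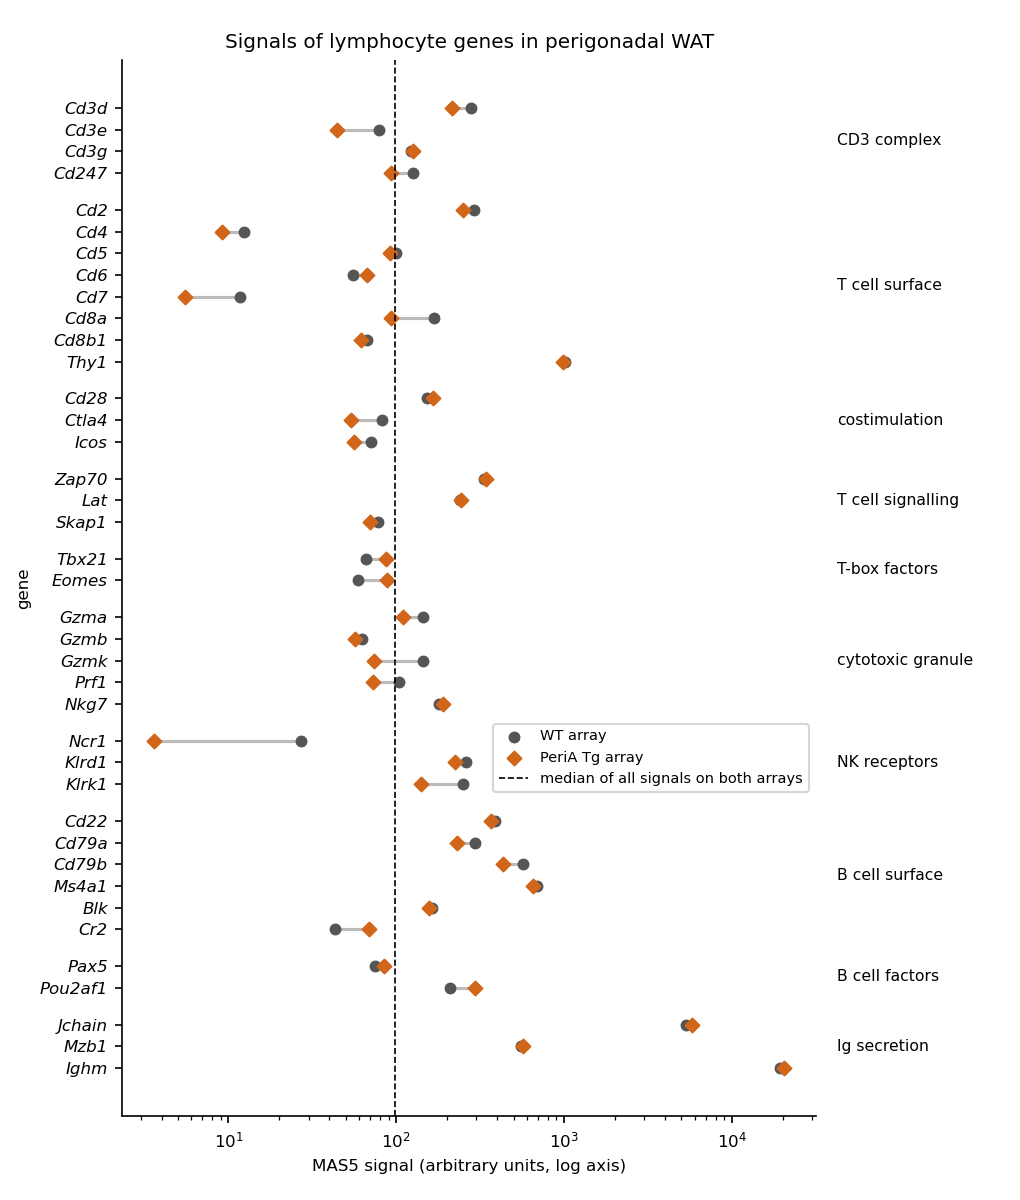
MAS5 signals (arbitrary units, log axis) of 39 lymphocyte genes on the WT array (grey circles) and the PeriA Tg array (orange diamonds), 1 array of pooled RNA per genotype, with genes grouped by role and the median of all signals, 98.2, as a dashed line. The B and plasma cell genes *Ighm* and *Jchain* lie far to the right with symbols that nearly coincide, and among T and NK cell genes that reach the line *Cd8a*, *Gzmk* and *Klrk1* show the widest gaps, with the Tg symbol on the left; the wide gap of *Ncr1* lies far below the line.

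Of the 25 lymphocyte genes with at least 1 signal at or above the median, 9 (36%) had a signal log ratio under -0.3 and 1 (4%) was over 0.3, while 15 lay between. Among all 11587 genes kept by the same filter, 16.9% were under -0.3 and 16.6% were over 0.3. Since 4 of the 9 were kept through the WT array alone, the count on genes above the median on both arrays is the more cautious one: 5 of 20 (25%) were under -0.3 and 1 (5%) was over 0.3, against 14.6% and 15.4% of 10850 genes. Ratios scatter more widely at low signals, where most of these genes lie. Among genes with a mean signal between the median and the 75th percentile, 7 of 17 lymphocyte genes (41.2%) were under -0.3 and 1 (5.88%) was over 0.3, against 23.9% and 19.8% of 4293 genes. No lymphocyte gene kept by the filter was past 1 in either direction, a 2-fold change, and neither were most genes, of which 1.87% were under -1 and 1.02% over 1. The median ratio was -0.09 over the 25 genes and 0.02 over all 11587.

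T and NK cell genes and B and plasma cell genes had different counts under the filter, a difference that was not tested. All 5 genes kept through the WT array alone, which had to be lower in Tg, were T and NK cell genes. Of 16 T and NK cell genes kept by the filter, 7 (43.8%) were under -0.3 and none was over 0.3, with a median of -0.22. The shares of all genes kept were 16.9% and 16.6%. Of T and NK cell genes above the median on both arrays, 3 of 11 (27.3%) were under -0.3 and none was over 0.3, with a median of -0.04. Of 9 B and plasma cell genes, all above the median on both arrays, 2 (22.2%) were under -0.3 and 1 (11.1%) was over 0.3. Their median was -0.05. The shares of all genes above the median on both arrays were 14.6% and 15.4%. Counted in this way, the T and NK cell genes and the B and plasma cell genes had similar shares under -0.3 and similar medians.

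**Figure D2:**
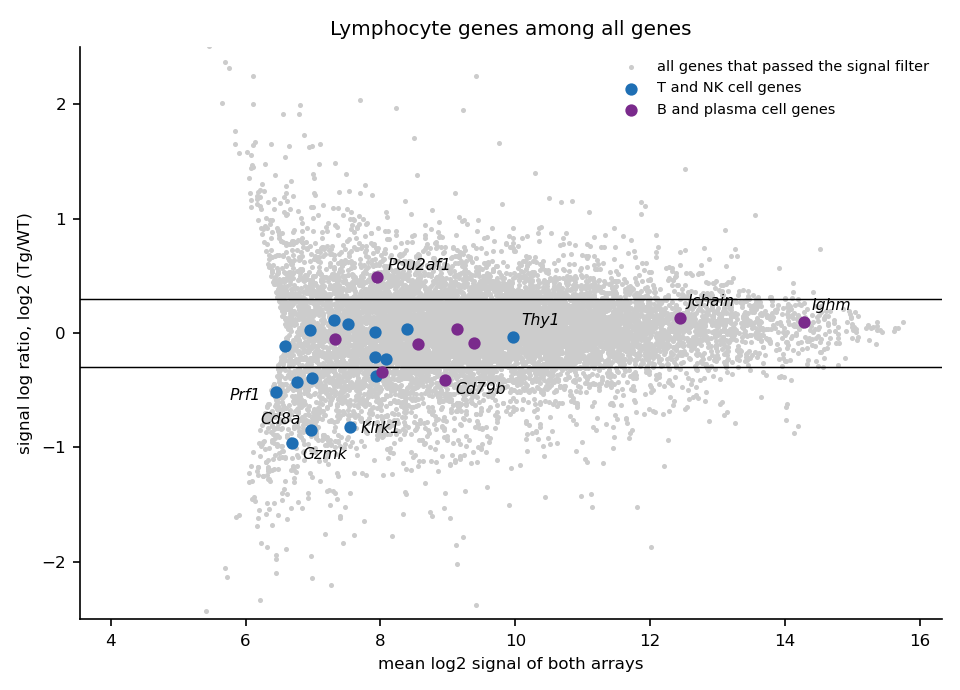
Signal log ratio, log2 (Tg/WT), plotted over mean log2 signal (average of the arrays) for 11587 genes kept by the signal filter (grey), with 16 T and NK cell genes (blue) and 9 B and plasma cell genes (purple), and lines at 0.3 and -0.3. The axis stops at 2.5 and -2.5, beyond which 32 genes lie; the lymphocyte genes fall inside the cloud of all genes, and those under -0.3 lie at its dim end, up to *Cd79b*.

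The CD3 chains carry the signal of the T cell receptor into the cell through tyrosines that kinases phosphorylate. *Cd3d* had a signal of 278.9 in WT against 214.8 in Tg, a signal log ratio of -0.38. *Cd3g* had 123.1 in WT against 125.6 in Tg (0.03). *Cd247*, the zeta chain, had 125.4 in WT against 93.1 in Tg (-0.43). On these arrays *Cd3d* and *Cd247* were lower in Tg and *Cd3g* was level. These ratios differ by less than 0.51, the SD between dim probe sets of 1 gene, so that they do not separate the chains. *Cd3e* was below the median on both arrays, with 79.1 in WT against 44.3 in Tg. The dimmer probe sets of *Cd247*, all below the filter, had 0.45, 0.23 and -1.81.

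Among surface proteins of T cells, *Cd2*, an adhesion receptor that binds CD48 in mice, had 291.6 in WT against 249.4 in Tg (-0.23). *Cd5*, a receptor that dampens antigen signals and also marks B-1 cells, had 100 in WT against 92.3 in Tg (-0.12), so that both values lay near the median. *Thy1*, which in fat is made by stromal cells as well as by T cells, had 1016 in WT against 990.9 in Tg (-0.04). *Cd8a*, a chain of the coreceptor of cytotoxic T cells, had 167.6 in WT against 93.1 in Tg (-0.85). This value comes from a probe set with an x suffix, which marks probes shared with unrelated transcripts. The next probe set of *Cd8a*, without that suffix, had 104.5 in WT against 88.7 in Tg (-0.24), and the remaining 3, all below the filter, had -0.38, -0.72 and 0.62. *Cd8b1*, the other chain, was below the median with 66.6 in WT against 61.5 in Tg. *Cd4*, the coreceptor of helper T cells, had 12.3 in WT against 9.10 in Tg on the brighter of its 2 probe sets, far below the median on both arrays, and *Cd6* and *Cd7*, surface proteins of T cells, were also below it. CD4 T cells therefore could not be followed through their coreceptor.

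*Cd28*, which gives T cells their costimulatory signal, had 152.6 in WT against 165.4 in Tg (0.12), and its second probe set, below the filter, had -0.47. *Ctla4* and *Icos*, which restrain and support activated T cells, were below the median on both arrays. *Ctla4* had 82.4 in WT against 53.9 in Tg, and *Icos* had 71.0 in WT against 56.1 in Tg.

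The signalling proteins next to the receptor were level. *Zap70*, the kinase that binds the phosphorylated CD3 chains, had 332.0 in WT against 340.2 in Tg (0.04). *Lat*, the membrane adaptor that ZAP-70 phosphorylates, had 241.1 in WT against 243.0 in Tg (0.01). Both lay above the median on both arrays and within 0.05 of equal signals. The other 2 probe sets of *Zap70* were dim, with 15.5 in WT against 62.8 in Tg on one and 13.9 in WT against 57.1 in Tg on the other. *Skap1*, an adaptor of T cell adhesion, was below the median with 77.9 in WT against 70.2 in Tg.

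Proteins of the cytotoxic granule were mixed. *Gzmk*, granzyme K of memory CD8 T cells, had the lowest ratio of the genes kept by the filter, with 143.6 in WT against 73.9 in Tg (-0.96). *Gzma*, granzyme A, had 144.4 in WT against 110.2 in Tg (-0.39). *Prf1*, the perforin that opens the target cell membrane, had 104.3 in WT against 73.0 in Tg (-0.51), and its second probe set, below the filter, had 86.4 in WT against 72.3 in Tg (-0.26). Not all genes of the granule were lower, since *Nkg7*, a granule membrane protein, had 178.5 in WT against 189.0 in Tg (0.08). *Gzmb*, granzyme B, was below the median with 62.4 in WT against 57.0 in Tg. *Tbx21* and *Eomes*, the T-box transcription factors of cytotoxic lymphocytes, were also below it and on the opposite side: *Tbx21* had 65.6 in WT against 86.5 in Tg, and *Eomes* had 58.8 in WT against 88.1 in Tg.

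Among NK receptors, *Klrk1*, which encodes the activating receptor NKG2D of NK cells and CD8 T cells, had 248.9 in WT against 141.0 in Tg, a signal log ratio of -0.82. Of the genes under -0.3 that were above the median on both arrays, it had the lowest ratio. *Klrd1*, which encodes CD94, the partner of the NKG2 chains, had 259.0 in WT against 224.5 in Tg (-0.21). *Ncr1*, which encodes NKp46 and marks NK cells and related innate cells in mice, had 27.0 in WT against 3.60 in Tg. Its ratio of -2.91 rests on signals far below the median, and with both raised to a floor of 56.9 it was 0.

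The promoters of *Gzma*, *Gzmk*, *Prf1* and *Klrk1* are shown as the sequence context of the cytotoxic and NK receptor genes under -0.3, each with the 250 bases before the annotated start from RefSeq (GRCm38.p6), 5′ to 3′ in the direction of transcription. Capitals mark TGTGGT, the core bound by RUNX factors, on either strand (ACCACA where it lies on the opposite strand). They lie at chr13:113100982-113101231 (minus strand) for *Gzma*, chr13:113180966-113181215 (minus strand) for *Gzmk*, chr10:61297586-61297835 (plus strand) for *Prf1* and chr6:129623865-129624114 (minus strand) for *Klrk1*.
Gzma: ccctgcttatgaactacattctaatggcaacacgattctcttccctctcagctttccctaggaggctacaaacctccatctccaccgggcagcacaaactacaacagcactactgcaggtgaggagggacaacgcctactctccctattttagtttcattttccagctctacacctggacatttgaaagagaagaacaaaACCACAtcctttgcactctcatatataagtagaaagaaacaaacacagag
Gzmk: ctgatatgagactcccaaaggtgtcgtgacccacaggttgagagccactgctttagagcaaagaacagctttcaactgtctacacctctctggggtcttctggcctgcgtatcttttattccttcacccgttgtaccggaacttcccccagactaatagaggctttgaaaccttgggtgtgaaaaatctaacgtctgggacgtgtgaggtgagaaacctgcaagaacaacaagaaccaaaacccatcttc
Prf1: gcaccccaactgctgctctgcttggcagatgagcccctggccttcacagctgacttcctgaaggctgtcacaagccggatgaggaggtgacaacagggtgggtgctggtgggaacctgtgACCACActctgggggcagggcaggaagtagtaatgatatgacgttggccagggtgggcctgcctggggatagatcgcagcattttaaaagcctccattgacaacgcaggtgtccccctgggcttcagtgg
Klrk1: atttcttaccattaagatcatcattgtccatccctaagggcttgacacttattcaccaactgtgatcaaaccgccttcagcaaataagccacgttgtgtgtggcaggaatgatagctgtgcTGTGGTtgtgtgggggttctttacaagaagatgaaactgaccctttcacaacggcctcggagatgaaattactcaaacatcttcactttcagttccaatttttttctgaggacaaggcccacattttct
The core was found 1 time each in *Gzma* (from 50 bases before the start), *Prf1* (130 bases) and *Klrk1* (129 bases), and not in this window of *Gzmk*. RefSeq windows were searched for 25 of the 40 genes, 29 windows in all, with 1 chromosome left out of the search. The core stood in 9 of the 29, of the genes *Gzma*, *Gzmb*, *Klrk1*, *Lck*, *Ncr1*, *Nkg7*, *Prf1* and *Zap70*, and in 14% of all 32851 windows searched. It was thus also present in *Nkg7* and *Zap70*, whose signals were level. A further 4 motifs were searched on both strands: the T-box motif TCACACCT (1.12% of windows) was found in *Nkg7*, GAGGAAGT of PU.1-type ETS factors (2.44%) in *Cd5*, and neither the octamer ATGCAAAT (1.60%) nor CCGGAAGT of ETS factors (2.88%) in a window of these genes. The motifs were chosen after the values were seen, and a match describes letters only.

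Of the B cell receptor, *Cd79a* and *Cd79b* encode the pair of chains that carry the signal of surface immunoglobulin. *Cd79a* had 293.4 in WT against 231.1 in Tg (-0.34), and *Cd79b* had 570.9 in WT against 430.8 in Tg (-0.41). Both chains were lower on the Tg array, by similar amounts, each with a single probe set. *Ms4a1*, which encodes CD20, had 692.5 in WT against 653.0 in Tg (-0.08), and its second probe set had 226.1 in WT against 248.0 in Tg (0.13). *Cd22*, an inhibitory coreceptor of B cells, had 388.9 in WT against 364.3 in Tg (-0.09), with a dim second probe set at 84.1 in WT against 17.3 in Tg. *Blk*, a Src family kinase of B cells, had 162.9 in WT against 157.5 in Tg (-0.05). *Ms4a1*, *Cd22* and *Blk* were therefore level beside the lower *Cd79a* and *Cd79b*. *Cr2*, the complement receptor of B cells and follicular dendritic cells, was below the median with 43.4 in WT against 69.0 in Tg.

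*Pou2af1*, the B cell coactivator of octamer-binding factors, had 209.1 in WT against 294.4 in Tg, a signal log ratio of 0.49. It was the only lymphocyte gene over 0.3 among those kept by the filter, and it has 1 probe set. *Pax5*, the transcription factor that keeps B cell identity, was below the median with 74.9 in WT against 84.7 in Tg.

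Genes of immunoglobulin secretion were bright and level. *Jchain*, the joining chain of secreted IgM and IgA, had 5308 in WT against 5804 in Tg (0.13). *Mzb1*, an endoplasmic reticulum protein of plasma cells and marginal zone B cells, had 554.7 in WT against 566.9 in Tg (0.03). *Ighm*, the constant region of IgM, had 19235 in WT against 20529 in Tg (0.09) on the brightest of 11 probe sets, and 12108 in WT against 12114 in Tg (0.00) on the next. The remaining 3 probe sets of *Ighm* that passed were lower on the Tg array: 2812 in WT against 1649 in Tg (-0.77), 221.4 in WT against 147.7 in Tg (-0.58), and 103.4 in WT against 59.1 in Tg (-0.81). The 6 below the filter ranged from -2.74 to 4.12. Several of these probe sets carry suffixes for shared or similar transcripts, and immunoglobulin genes share much sequence, so that *Ighm* is uncertain as a single gene.

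Probe sets of 1 gene often differed. Of the 13 lymphocyte genes with at least 2 probe sets, 7 had probe sets on both sides of 0, and 9 had the brightest and the second-brightest on the same side. In 3 genes at least 2 probe sets passed the filter, and in 1 of these, *Cd8a*, all that passed went the same way. The other 26 genes rest on a single probe set.

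**Figure D3:**
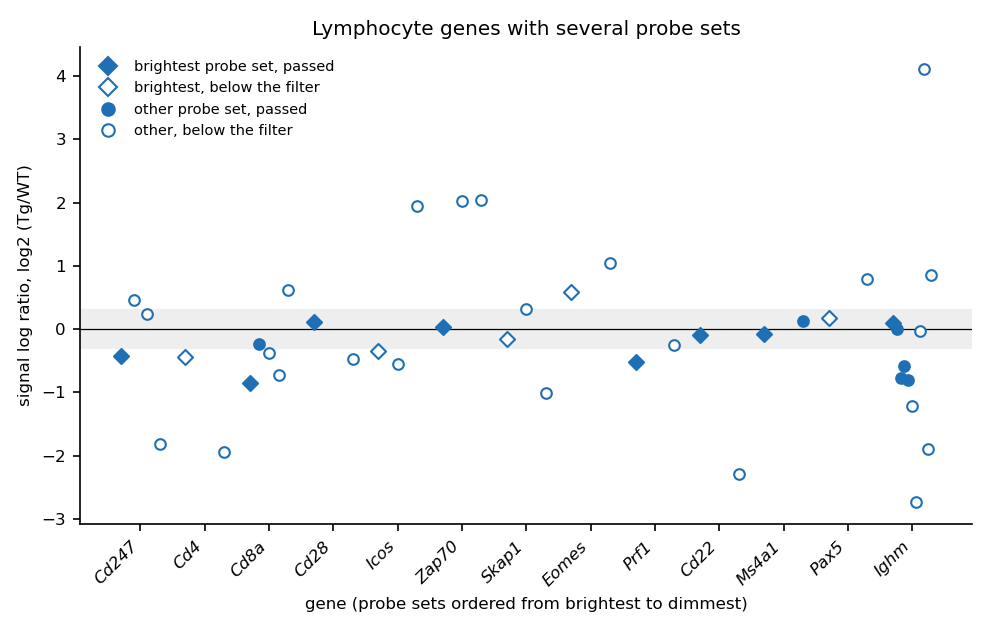
Signal log ratios of every probe set of the 13 lymphocyte genes with at least 2, ordered from the brightest (diamonds) to the dimmest, filled where the probe set passed the signal filter and open where it did not, with a grey band from -0.3 to 0.3. The filled symbols of *Ms4a1* stay within the band, those of *Ighm* spread from 0.09 to -0.81, and ratios beyond 1 or -1 come from open symbols.

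The 14 genes below the median on both arrays were *Cd3e*, *Cd4*, *Cd6*, *Cd7*, *Cd8b1*, *Ctla4*, *Icos*, *Skap1*, *Tbx21*, *Eomes*, *Gzmb*, *Ncr1*, *Cr2* and *Pax5*. Their signals ranged from 3.60 to 88.1, and their ratios from -2.91 for *Ncr1* to 0.67 for *Cr2*, on both sides of 0. Second and further probe sets of these genes were dim as well: -1.94 for *Cd4*, -0.55 and 1.95 for *Icos*, 0.32 and -1.02 for *Skap1*, 1.04 for *Eomes* and 0.80 for *Pax5*. With the 14 genes included, 15 of 39 lymphocyte genes (38.5%) were under -0.3 and 4 (10.3%) over 0.3, against 25% and 24.6% of all 18193 genes.

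Scaling bears on these counts. When each array was centred on its median signal, which raises every ratio by 0.08, 7 of 24 lymphocyte genes (29.2%) were under -0.3 and 1 (4.17%) was over 0.3, with *Cd3d* at -0.29 and *Cd79a* at -0.26, against 12.9% and 25.1% of all genes kept. Genes over 0.3 then made up 66.1% of all genes past the threshold, against 49.6% without centring.

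Further genes of T, NK and B cells, 111 in all, were listed for comparison. Of these, 97 were measured and 58 passed the filter, with 22 (37.9%) under -0.3, 10 (17.2%) over 0.3 and a median of -0.13. The background is again 16.9% and 16.6%. *Il2rb*, a receptor chain for interleukins 2 and 15, had 122.3 in WT against 51.8 in Tg (-1.24). It was kept through its WT signal alone and so had to be lower in Tg. *Il7r*, the interleukin 7 receptor of T cells and innate lymphoid cells, had 1090 in WT against 528.8 in Tg (-1.04). *Sdc1*, a plasma cell marker that other cells also make, had 838.1 in WT against 397.4 in Tg (-1.08), and *Igha*, the constant region of IgA, had 2829 in WT against 1464 in Tg (-0.95). *Iglv1*, a light chain segment, lay on the other side with 1269 in WT against 2327 in Tg (0.88). Among the genes under -0.3 were *Fcer1g*, *Tyrobp*, *Syk*, *Plcg2*, *Irf8* and *Blnk*, singled out after their values were seen, which macrophages also make. Other genes of the list that macrophages also make were higher or level. *Btk*, kept through its Tg signal, had 60.8 in WT against 104.3 in Tg (0.78). *Cd40* had 0.21, *Cd180* 0.02 and *Ikzf1* -0.03.

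Markers of other leukocytes also differed between the arrays. For the counts below, 16.9% of all genes kept by the filter were under -0.3 and 16.6% were over 0.3. Among all genes whose higher signal reached 470.5, these were 11.5% and 14.1%. Of 16 pan-leukocyte markers, all above the filter, 12 were under -0.3 and none was over 0.3, with a median of -0.51 and summed signals of 29551 in WT against 21425 in Tg. *Ptprc*, which encodes CD45 of all leukocytes, had 2931 in WT against 2545 in Tg (-0.20), whereas *Hcls1*, an actin regulator of blood cells, had -1.19. Of 20 macrophage markers, all above the filter, 13 were under -0.3 and none was over 0.3, with a median of -0.51 and summed signals of 113309 in WT against 80762 in Tg. *Trem2*, a receptor of lipid-associated macrophages, had 1062 in WT against 294.5 in Tg (-1.85). *Itgal*, an integrin chain of leukocytes (286.7 in WT against 287.4 in Tg), and *Mrc1*, the mannose receptor of macrophages (4610 in WT against 4597 in Tg), had near-equal signals, and *Cd163* (0.10) and *Cd14* (0.18), also of macrophages, were on the other side. The medians of the lymphocyte genes, -0.22 (T and NK) and -0.05 (B and plasma), lay nearer to 0, and the difference between lists was not tested. The T and NK value includes 5 genes kept through the WT array alone. On genes above the median on both arrays it was -0.04, against -0.51 for pan-leukocyte and for macrophage markers, so that -0.22 and -0.05 do not rank the 2 lymphocyte groups. The part of macrophages in the lymphocyte values was not tested.

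Endothelial markers had a median of -0.06, with 1 of 10 (10%) under -0.3 and none over 0.3. Adipocyte markers had a median of 0.09, with 1 of 11 (9.09%) under -0.3 and 2 (18.2%) over 0.3. The shares of all genes kept by the filter were 16.9% and 16.6%. Perigonadal fat can include lymphoid clusters. *Cxcl13*, a chemokine that attracts B cells to such clusters, had 1099 in WT against 1316 in Tg (0.26). *Glycam1* and *Madcam1*, made by high endothelial venules of lymphoid organs, were far below the median. *Glycam1* had 9.50 in WT against 15.2 in Tg, and *Madcam1* had 25.8 in WT against 45.5 in Tg. *Clec4g* and *Chst4*, of the same list, were also below the median but lower in Tg. *Clec4g* had 46.8 in WT against 29.8 in Tg, and *Chst4* had 88.7 in WT against 63.8 in Tg.

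**Figure D4:**
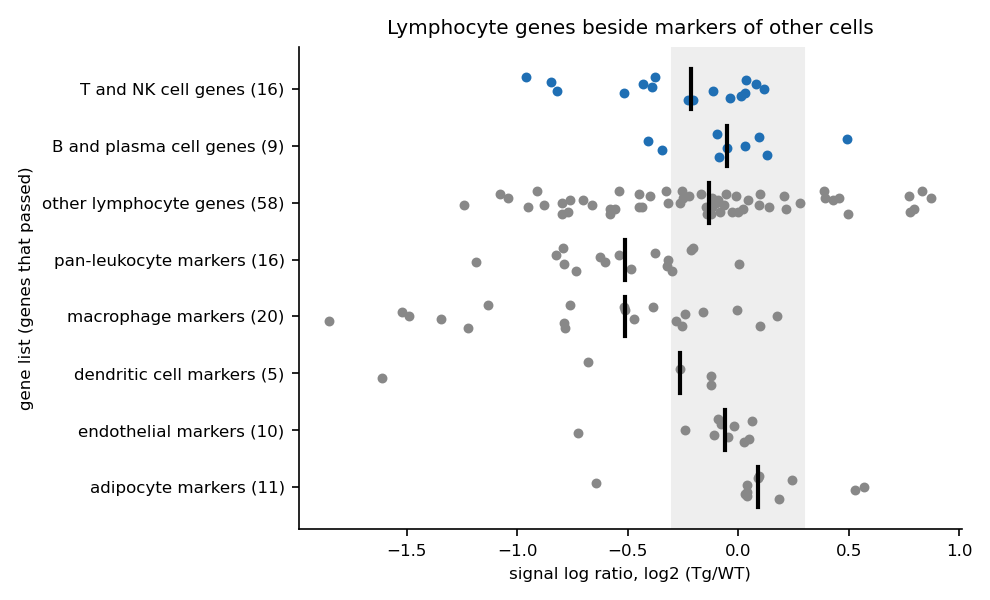
Signal log ratios, log2 (Tg/WT), of lymphocyte genes (blue) and of comparison lists (grey) that passed the signal filter, 1 point per gene with the number of genes in parentheses; black bars are medians, grey shading marks -0.3 to 0.3, and points are spread vertically within each list for legibility only. The bars of the pan-leukocyte and macrophage markers stand near -0.51, those of T and NK cell genes at -0.22 and of B and plasma cell genes at -0.05. The T and NK list holds 5 genes kept through the WT array alone, and on its genes above the median on both arrays the median was -0.04.

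**Figure D5:**
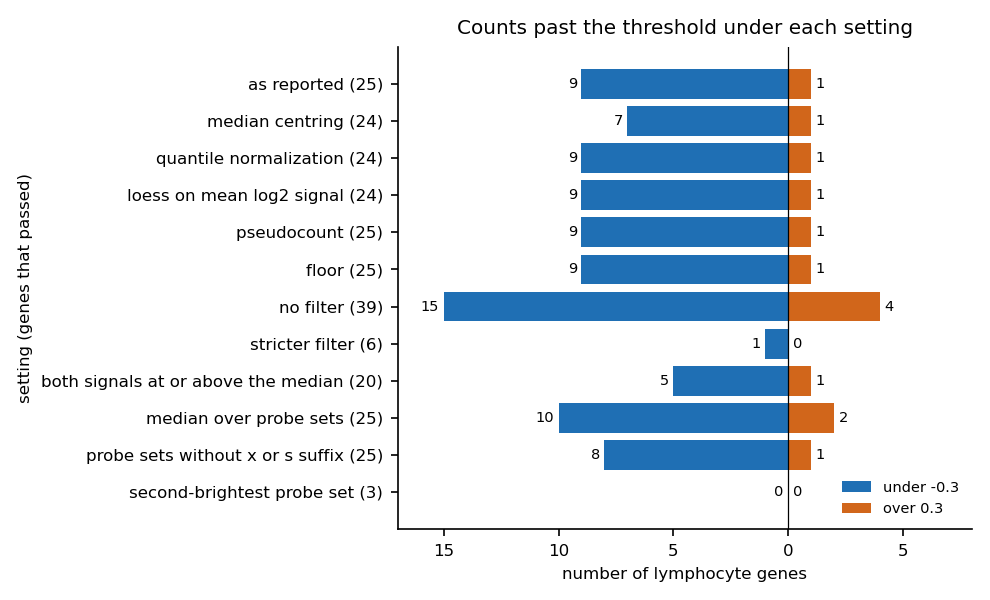
Number of lymphocyte genes with a signal log ratio under -0.3 (blue, to the left) and over 0.3 (orange, to the right) with the values as reported and under each alternative setting, the number of genes that passed in parentheses. Genes under -0.3 range from 0 of 3 on second-brightest probe sets to 15 of 39 without a filter, and outnumber those over 0.3 in every setting but that of second-brightest probe sets, where both are 0.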

How the data were processed

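Perigonadal WAT of PeriA Tg and WT mice was profiled on 2 arrays, 1 pool of RNA each. The authors made the deposited intensity values, MAS5 signals on a linear scale, with GeneChip Operating Software ver1.4 from perfect-match and mismatch probes; each array was scaled as a whole, to a 2% trimmed mean of 500.0. The table holds 45101 probe sets, of which 64 are controls, without detection calls. Of the others, the platform annotation gave 1 symbol for 34945 and several for 932, and 9160 were not listed.

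From these signals, log2 ratios of Tg over WT were computed without further normalization or pseudocount. The filter kept genes whose higher signal reached 98.2, the median of all signals. Scaling of whole arrays can shift all ratios alike, and mismatch subtraction makes low signals unsteady; the number of arrays limits the precision. Both signals are given for each member that passed, while members below the filter are named with ranges; of comparison lists, the genes with the largest ratios were named, and other genes were chosen after their values were seen. The members and lists were chosen with earlier results of these data known. Alternatives were median centring, quantile normalization, loess (span 0.3), a pseudocount of 25.1, a floor of 56.9, no filter, filters at 470.5 or on both signals, and other probe sets of a gene. The ratio and scaling steps were tested on simulated data. Tools were numpy 2.4.6, statsmodels 0.14.6, pandas 2.3.3 and matplotlib 3.10.9 in Python 3.11.15.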

Additional observations from a re-analysis of the deposited data

How the results depend on the processing

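With 1 array per genotype no replicate could be left out. No paired analysis was possible because each genotype has 1 array. On second-brightest probe sets, which 13 lymphocyte genes have, 8 moved by at least the SD of 0.41 between probe sets, and *Cd247* reversed. Many other cases could hardly move, since centring shifts every ratio by 0.08 and 26 genes have 1 probe set. Over all settings, values of single lymphocyte genes moved by less than that SD in 266 of 286 cases, a count that these cases raise. In 11 the sign changed, in 7 genes: *Cd247* (0.45), *Cd28*, *Skap1* and *Ms4a1* on second-brightest probe sets, *Cd28*, *Ms4a1* and *Ighm* (-0.58) with the median over probe sets, *Thy1* and *Blk* after median centring, and *Blk* after quantile normalization and loess. The median of lymphocyte genes was -0.0058 after median centring, which moved that of all genes to 0.11, -0.0025 over the 6 genes passing the stricter filter, -0.18 with the median over probe sets and 0.00068 on second-brightest probe sets, of which 3 passed. For the other lymphocyte genes these medians were -0.038, -0.20, -0.25 and -0.36. Counts of lymphocyte genes under -0.3 and over 0.3 were 15 and 4 of 39 without a filter (all genes 25% and 24.6%). They were 1 and 0 of 6 with the stricter filter (all genes 11.5% and 14.1%). On second-brightest probe sets they were 0 and 0 of 3 (all genes 25.8% and 17%). With both signals at or above the median, 5 of 20 were under -0.3 and 1 over 0.3 (all genes 14.6% and 15.4%). With the median over probe sets, 10 of 25 were under -0.3 and 2 over 0.3 (all genes 21.3% and 15.7%). Of 97 other lymphocyte genes without a filter, 35 were under -0.3 and 22 over 0.3 (all genes 25% and 24.6%). With the stricter filter these were 10 and 2 of 24 (all genes 11.5% and 14.1%). Of 47 other lymphocyte genes with both signals at or above the median, 17 were under -0.3 and 6 over 0.3 (all genes 14.6% and 15.4%). On second-brightest probe sets 15 of 26 were under -0.3 and 4 over 0.3 (all genes 25.8% and 17%). The filters and second-brightest probe sets change how many genes are read, and for the remaining settings the cause was not tested.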

Other observations

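Markers of further immune cells were also read. Of 9 dendritic cell markers measured, 5 passed the filter and 2 were under -0.3, with a median of -0.27. The 2 were *Batf3*, a factor of conventional dendritic cells, with 295.7 in WT and 96.7 in Tg (-1.61), and *Zbtb46* (-0.68). *Batf3* was kept through its WT signal alone and had to be lower in Tg. Of 11 mast cell and neutrophil markers, 8 passed, with 3 over 0.3, 2 under -0.3 and a median of 0.17. Among all genes kept by the filter, 16.9% were under -0.3 and 16.6% over 0.3. Over 0.3 were the mast cell proteases *Cpa3* (0.37) and *Tpsb2* (0.42) and the neutrophil receptor *Csf3r* (0.67, 68.4 in WT against 109.1 in Tg). *Csf3r* was kept through its Tg signal alone. Under -0.3 were *S100a8* (-1.44) and *S100a9* (-0.79), calcium-binding proteins abundant in neutrophils, and the mast cell markers *Kit* (-0.12), *Cma1* (0.08) and *Mcpt4* (0.25) lay between. *S100a9* was kept through its WT signal alone. Of 5 lymph node stroma markers measured, *Cxcl13* alone passed.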
